A study of Homo sapiens with 6 samples.

Results

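The MYC, MAX and MXD network was followed through 10 genes, MYC, MAX, MNT, MGA, MXD1, MXD3, MXD4, MXI1, MLX and MLXIP. They were chosen by symbol as known members of the network, with earlier results of these data known, and a transcript belonged to a gene where GENCODE 29 gives it that symbol. The 10 genes were among 34500 genes with a listed transcript, and they accounted for 99 of 159239 listed transcripts that matched the annotation. The cells were RPMI 8226, a human line derived from multiple myeloma, a cancer of plasma cells, kept in medium with 10% fetal bovine serum. Cells of the control group, shLuc, had received a lentiviral hairpin RNA directed at luciferase, and cells of the other group, shHDAC1, a lentiviral hairpin RNA directed at the histone deacetylase gene HDAC1. All cells of both groups had been selected in puromycin for 48 h after transduction, and each group held 3 libraries. The labels give 1 cell line and 1 shHDAC1 group, so a loss of HDAC1 RNA cannot be told apart from other effects of that hairpin.

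The proteins of the network are basic helix-loop-helix leucine zipper factors that bind DNA as pairs. MYC binds with MAX at the E-box CACGTG and recruits histone acetyltransferases, and it raises transcription of genes for ribosome production, nucleotide supply and growth. MXD1, MXD3, MXD4, MXI1 and MNT compete for MAX and recruit the SIN3 corepressor, which carries HDAC1 or HDAC2, so the deacetylase reduced here is a working part of the repressive arm. MGA pairs with MAX inside the PRC1.6 complex, which silences germline genes, and MLX pairs with MLXIP (MondoA) in a branch that answers to glucose. In multiple myeloma MYC is a driver of growth and a gene that the plasma cell factor IRF4 activates.

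The RNA of HDAC1 was 90.0, 85.0 and 88.9 TPM (a transcript's share of a library after correction for its length) in shLuc replicates 1 to 3 and 31.8, 27.0 and 29.2 TPM with shHDAC1. All 3 shHDAC1 libraries lay below all shLuc libraries, and HDAC1 fell by 1.56 on the log2 scale (SE 0.08, n = 3 per group, adjusted p = 2.2e-06). Sequencing depth is unknown, as TPM carries no read numbers, and counting errors are therefore not given. Across genes, library pairs correlated at 0.989 to 0.993 within groups and 0.971 to 0.974 between groups. Genes at 1 TPM or more numbered 11629 to 11688 in the shLuc libraries and 11837 to 11992 in the shHDAC1 libraries. Gene sums were compared with limma on log2(TPM + 1) over 11857 genes, and a gene was called at a Benjamini-Hochberg adjusted p below 0.05. Of these genes 27.2% were called, 16.9% higher and 10.3% lower with shHDAC1. With each library centred on its median log2 value, 1336 genes were called higher and 1828 lower in place of 2007 and 1219, because the median change of all genes moved from 0.07 to -0.03.

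Of 10 markers of plasma cells, the origin of the line, 9 were present and tested, and all 9 were lower with shHDAC1. The tenth, the surface receptor SLAMF7, was below 1 TPM in every library and was not tested, at 0.05 to 0.39 TPM with shLuc and 0.52 to 0.96 TPM with shHDAC1. Their summed level was 8219 to 9030 TPM in shLuc libraries and 6081 to 7327 TPM in shHDAC1 libraries. TNFRSF17, the receptor BCMA, fell by 2.31 on the log2 scale (adjusted p = 3.6e-08), IRF4 fell by 1.10 (adjusted p = 6.1e-05) and MZB1, a chaperone of immunoglobulin assembly, fell by 0.53 (adjusted p = 2.1e-04), all by limma. Of 20 markers of T, NK, myeloid, stromal, endothelial and epithelial cells, 16 stayed below 1 TPM in every library and 4 of these, CD3D, CD2, NKG7 and CDH5, were at 0. The list's summed level was 81.8 to 97.4 TPM in shLuc libraries and 86.7 to 89.4 TPM in shHDAC1 libraries, nearly all of it EPCAM, an epithelial adhesion gene at a mean of 81.8 TPM with shLuc and 76.0 TPM with shHDAC1. Of its 3 tested genes, EPCAM, PECAM1 and ITGAM, the integrin gene ITGAM was higher, by 1.17 (adjusted p = 9.3e-04). The part of the plasma cell programme in the values of the network was not tested. In bulk RNA, fewer cells that make a transcript and less of it per cell cannot be told apart.

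All 10 network genes were above 1 TPM in every library and were tested. MYC was lower with shHDAC1, MXD4 and MLX were higher, and the other 7 genes did not pass the test. That is 2 genes called higher and 1 called lower of 10, beside 16.9% higher and 10.3% lower among all genes, so the count of called members is close to the background. The median log2 fold change of the 10 genes was 0.13, beside 0.07 over all genes tested. The same 3 genes, MYC, MXD4 and MLX, had groups that did not overlap, and 43.3% of all tested genes had such groups.

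**Figure D1:**
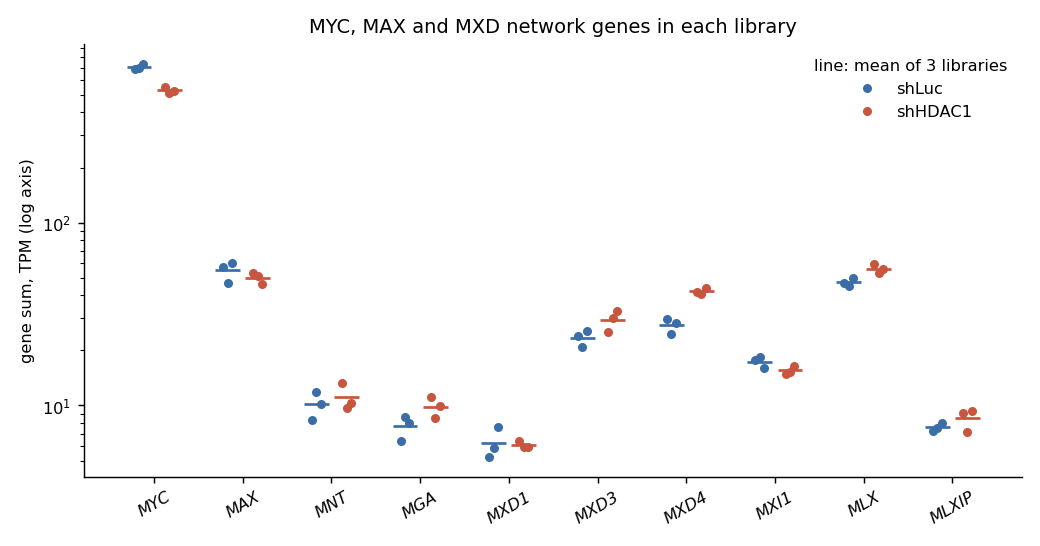
Gene sums in TPM on a log axis for the 10 network genes in each of 6 libraries, with 3 points per group (shLuc blue, shHDAC1 red) and a line at the group mean. MYC lies far above the others, and the 2 groups are apart for MYC, MXD4 and MLX.

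By TPM, the network was dominated by MYC RNA. TPM is corrected for transcript length, but a gene sum depends on how reads were divided between models of different length. With shLuc, MYC-206, a model of 1365 bases, held 63.7% of MYC TPM. MXD4-204, a model of 624 bases, held 65.7% of MXD4 TPM in the same group. Order and shares between genes therefore hold only for the TPM as deposited. MYC held 77.9% ± 0.76 of the summed TPM of the 10 genes with shLuc and 69.8% ± 0.46 in shHDAC1 libraries (SD, n = 3), and its mean shLuc level lay at or above that of 98.3% of tested genes. In shLuc libraries the mean levels ran from MYC at 712 TPM to MAX at 54.8, MLX at 47.3, MXD4 at 27.6, MXD3 at 23.5, MXI1 at 17.4, MNT at 10.2, MGA at 7.68, MLXIP at 7.59 and MXD1 at 6.25 TPM. The ranges of neighbours overlapped for MAX and MLX, for MXD4 and MXD3, and along the run from MNT to MGA, MLXIP and MXD1. With shHDAC1 the order was the same except that MLX, at 56.1 TPM, stood above MAX, at 50.0 TPM, with ranges that did not overlap. In those libraries MXD4, at 42.1 TPM, was also apart from MXD3, at 29.4 TPM.

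MYC, the activator of the network (chromosome 8, 127735434 to 127741434, plus strand, GRCh38), was at 692, 704 and 739.5 TPM in shLuc replicates 1 to 3. It was at 554, 509 and 525 TPM with shHDAC1. The highest shHDAC1 library was below the lowest shLuc library. MYC fell by 0.43 on the log2 scale, to 74.4% of its shLuc mean (SE 0.06, n = 3 per group, limma adjusted p = 6.5e-04), and it passed the test under all 14 alternative settings. MYCN, a paralogue used mainly in neural tissue, was low at 1.95, 2.51 and 2.62 TPM with shLuc and 0.94, 1.06 and 1.10 TPM with shHDAC1. Its groups did not overlap, and it fell by 0.72 (SE 0.15, adjusted p = 0.0087). MYCL was at 4.88 ± 0.19 TPM in shLuc and 5.15 ± 0.55 TPM in shHDAC1 libraries (SD, n = 3), with overlapping groups and an adjusted p of 0.76.

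At the level of single transcripts, 42 of the 99 member transcripts passed the filter and were tested, among 39716 in all, of which 3.33% were called, 1.83% higher and 1.51% lower. Of the 42, MXD3-209 and MXD4-201 were called higher and MYC-206 lower, and 13 had groups that did not overlap, beside 25.6% of all tested transcripts. Both counts include MXD3-209, which passed the filter through its shHDAC1 values alone, so its difference is tied to the filter and the counts support nothing. A further 22 of the 99 were at 0 in every library. TPM is an estimate where transcripts share sequence, and a gene sum depends on how reads were divided between models of different length.

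GENCODE 29 lists several MYC transcripts that share most of their sequence, and 6 of 7 had a mean of at least 1 TPM. MYC-206 (ENST00000613283), whose model of 1365 bases is almost all coding sequence, carried 63.7% ± 3.3 of MYC TPM in shLuc and 62.1% ± 6.0 in shHDAC1 libraries (SD, n = 3). Its level was 466, 429.9 and 463 TPM with shLuc and 314, 311 and 359.7 TPM with shHDAC1. The groups were apart, with a change of -0.47 (SE 0.08, adjusted p = 0.036). This call was lost in 9 of 13 alternatives, among them each library left out in turn (adjusted p 0.050 to 0.14). MYC-205, with a model of 2150 bases, was at 123, 137 and 122 TPM against 108, 89.7 and 86.5 TPM, and MYC-201 at 68.5, 58.6 and 79.8 TPM against 52.8, 39.8 and 51.7 TPM. Both transcripts had groups that did not overlap, with changes of -0.43 (adjusted p = 0.099) and -0.51 (adjusted p = 0.17), and neither passed the test. The shares of MYC-201, MYC-205 and MYC-206 differed between groups by less than 2 percentage points each, as the stacked plot of transcripts shows. MYC-202 and MYC-207, whose models differ by 15 bases in length, had identical values in every library, so the deposited values do not resolve them. The short MYC-204 was at 12.2 ± 2.2 TPM in shLuc and 12.2 ± 1.6 TPM in shHDAC1 libraries (SD, n = 3).

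MAX, the shared partner (chromosome 14, 65006174 to 65102695, minus strand), was at 57.4, 47.0 and 60.1 TPM with shLuc and 52.8, 51.2 and 46.0 TPM with shHDAC1. The groups overlapped, and the change of -0.13 (SE 0.10, adjusted p = 0.40) did not pass the test. Per TPM of MAX there were 13.1 ± 1.6 TPM of MYC in shLuc and 10.6 ± 0.75 in shHDAC1 libraries (SD, n = 3), and these ratios did not overlap. The ratios between genes were not tested.

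No MAX transcript was called, and several varied widely between libraries. MAX-204, the main transcript, was at 23.9, 27.2 and 21.2 TPM with shLuc and 27.1, 26.5 and 29.2 TPM with shHDAC1. MAX-216, a coding transcript of 615 bases, was at 6.11, 5.30 and 7.90 TPM against 0.01, 3.49 and 1.79 TPM, and MAX-201 at 1.48, 1.70 and 1.73 TPM against 2.97, 3.09 and 2.25 TPM. The groups of MAX-216 and MAX-201 did not overlap, in opposite directions. Their changes of -1.66 (SE 0.56, adjusted p = 0.19) and 0.51 (SE 0.19, adjusted p = 0.23) did not pass the test, nor did their shares of MAX TPM (adjusted p = 0.56 and 0.58). MAX-215 ranged from 1.16 to 12.4 TPM within shLuc alone, and MAX-206 from 1.45 to 7.95 TPM within shHDAC1 alone. MAX-212, at 6.64 ± 3.2 against 4.42 ± 3.6 TPM, and MAX-219, at 4.91 ± 0.65 against 3.93 ± 2.0 TPM, had overlapping groups (shLuc against shHDAC1, SD, n = 3).

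MXD4, a repressor of the MXD family that pairs with MAX (chromosome 4, 2247432 to 2262294, minus strand), was the member with the highest fold change. It was at 29.7, 24.7 and 28.4 TPM with shLuc and 41.6, 40.9 and 44.0 TPM with shHDAC1. All shHDAC1 libraries were above all shLuc libraries. MXD4 rose by 0.60 on the log2 scale, to 153% of its shLuc mean (SE 0.09, n = 3 per group, limma adjusted p = 0.0015), and it too passed the test under all 14 alternatives. Of the summed TPM of MXD1, MXD3, MXD4 and MXI1 it held 36.9% ± 1.7 in shLuc and 45.3% ± 1.7 in shHDAC1 libraries (SD, n = 3), without overlap.

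Most MXD4 TPM came from a transcript that is not annotated to give the full protein. MXD4-204, a model of 624 bases annotated as a substrate of nonsense-mediated decay, held 65.7% ± 3.2 of MXD4 TPM with shLuc and 63.4% ± 3.1 in the shHDAC1 libraries (SD, n = 3). It was at 20.04, 15.3 and 19.1 TPM against 25.4, 27.4 and 27.4 TPM, with a change of 0.54 (SE 0.12, adjusted p = 0.082). The coding MXD4-201 (ENST00000337190), of 4056 bases, was at 7.32, 6.91 and 7.89 TPM with shLuc and 13.0, 11.2 and 13.9 TPM with shHDAC1. Both transcripts had groups that did not overlap. MXD4-201 was called higher by 0.71 (SE 0.13, adjusted p = 0.0475), a call lost in 9 of 13 alternatives, among them each library left out in turn (adjusted p 0.080 to 0.16). The noncoding MXD4-205 was low, at 1.20 ± 0.56 TPM in shLuc and 1.57 ± 0.27 TPM in shHDAC1 libraries (SD, n = 3), with overlap.

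**Figure D2:**
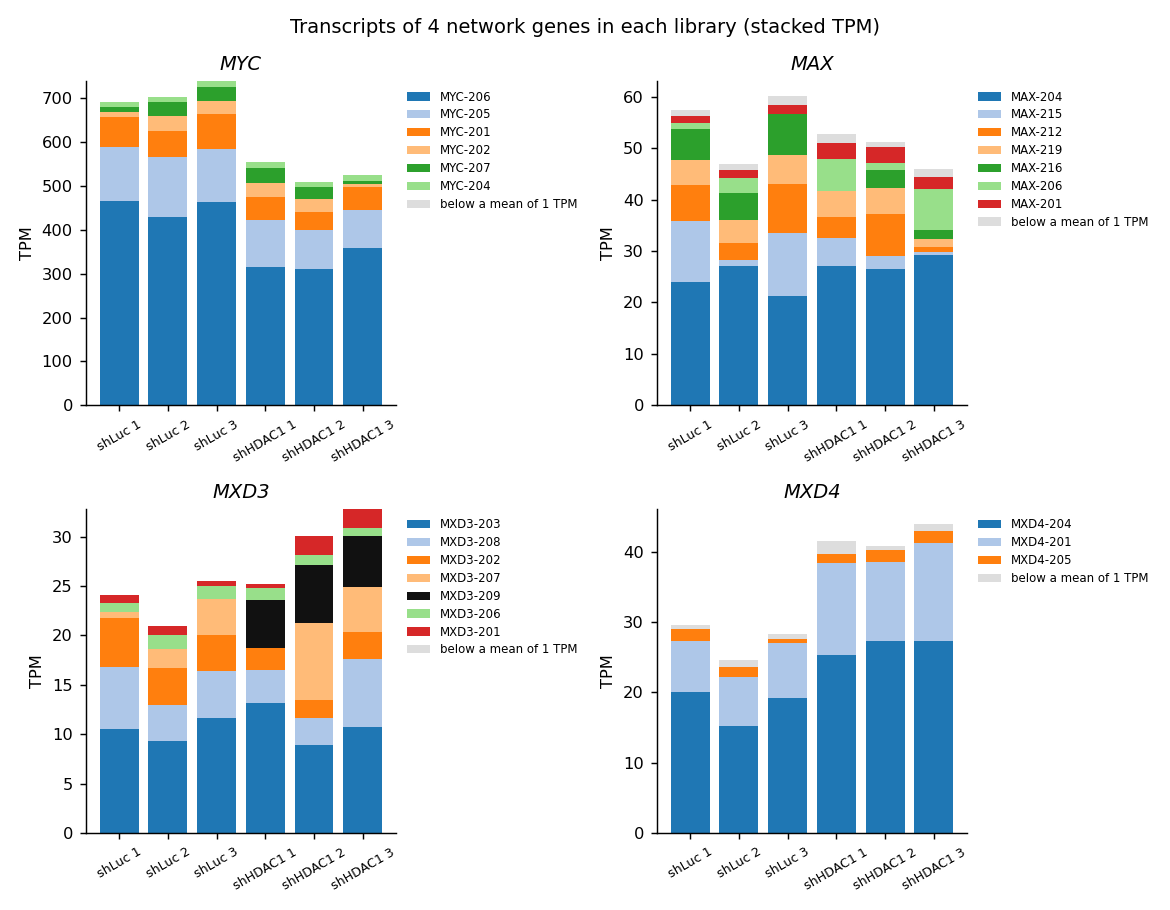
Stacked TPM of the transcripts of MYC, MAX, MXD3 and MXD4 in each of 6 libraries, with transcripts below a mean of 1 TPM pooled in grey. MXD3-209, in black, is seen in the 3 shHDAC1 libraries and is at 0.02 TPM or less in the shLuc libraries, while the makeup of MYC and MXD4 is similar in both groups.

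MXD3, an MXD repressor made mainly in proliferating cells (chromosome 5, 177301461 to 177312757, minus strand), was at 24.1, 20.9 and 25.5 TPM with shLuc and 25.2, 30.1 and 32.8 TPM with shHDAC1. The groups overlapped in shHDAC1 replicate 1. The change of 0.31 (SE 0.12, adjusted p = 0.086) did not pass the test, and it did so only without shHDAC1 replicate 1 (0.41, adjusted p = 0.040). Within the gene, 1 transcript stood apart. MXD3-209 (ENST00000513169), a model of 555 bases, was listed at 0.00, 0.02 and 0.02 TPM with shLuc and at 4.92, 5.93 and 5.10 TPM with shHDAC1. The groups were far apart, with a difference of 2.64 on the scale of log2(TPM + 1) (SE 0.18). Its limma adjusted p of 0.0031 is given as a description, because it reached 1 TPM in 3 libraries only through the group in which it is high. With no filter the adjusted p was 0.010. Without it MXD3 was at 24.1, 20.9 and 25.5 TPM against 20.3, 24.2 and 27.7 TPM, with overlapping groups.

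MXD3-209 made up 0.06% ± 0.05 of MXD3 TPM with shLuc and 18.3% ± 2.4 in shHDAC1 libraries (SD, n = 3). The fit of this share against the other MXD3 transcripts, which used the same filter, gave a difference of 2.61 (SE 0.25, adjusted p = 0.058) that was not called, in a comparison where 17 of 37528 transcripts (0.0453%) were called. It was called under 3 of 9 alternatives, with quantile normalization, no filter or a pseudocount of 0.1. Of the 42 member transcripts tested for their share, 0 were called by limma. MXD3-203, the main transcript with the full coding region, was at 10.6, 9.29 and 11.7 TPM with shLuc and 13.2, 8.94 and 10.7 TPM with shHDAC1, and these groups overlapped.

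In GENCODE 29, exon 2 of MXD3-209 begins 30 bases before the exon 2 of MXD3-203, and 0 other MXD3 transcripts hold the whole of this stretch in an exon. The stretch is shown because it is what sets MXD3-209 apart from MXD3-203 at this junction, at chr5:177311485-177311514 on the minus strand of GRCh38. The capitals mark a stop codon in frame with the start codon of MXD3-203.
MXD3-209: ccTGAcgcgggcggggactctctctggcag
The stop codon starts at base 3 of the stretch. The annotated coding start of MXD3-209 lies further on, in its exon 4, after 249 coding bases of MXD3-203. The deposited values assign TPM to whole transcripts, and reads over this junction were not examined here.

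MXD3-202 was at 5.00, 3.71 and 3.68 TPM with shLuc and 2.20, 1.81 and 2.74 TPM with shHDAC1. Its groups did not overlap, and its change of -0.66 (SE 0.20, adjusted p = 0.16) did not pass the test. Of its bases, 51.0% are shared with exons of PRELID1 on the opposite strand, a gene at 529 TPM with shLuc and 404 TPM with shHDAC1 that fell by 0.39 (adjusted p = 8.5e-04). Whether strand was used in counting is not given in the sources used here, so reads of the 2 genes cannot be told apart within the shared bases. MXD3-207 shares 51.3% of its bases with RAB24 on the same strand and ranged from 0.00 to 7.74 TPM within shHDAC1. The groups of the other MXD3 transcripts overlapped, with MXD3-208 at 4.88 ± 1.3 against 4.33 ± 2.3 TPM, MXD3-206 at 1.20 ± 0.28 against 1.02 ± 0.20 TPM, and MXD3-201, which was not tested, at 0.73 ± 0.23 against 1.42 ± 0.94 TPM (shLuc against shHDAC1, SD, n = 3). Without the MXD3 transcripts that share exons with these neighbours, the gene's change was 0.36 (limma adjusted p = 0.059). That sum still holds MXD3-209, at a mean of 0.01 TPM with shLuc and 5.32 TPM with shHDAC1, so it is not free of the transcript tied to the filter.

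The remaining MXD repressors, MXD1 and MXI1, did not pass the test. MXD1, a factor of differentiating cells (chromosome 2, 69897688 to 69942945, plus strand), was the lowest member at 5.23, 5.85 and 7.66 TPM with shLuc and 6.43, 5.91 and 5.93 TPM with shHDAC1. The shHDAC1 values fell inside the shLuc range, with a change of -0.02 (SE 0.15, adjusted p = 0.94). MXD1-204 was at 2.67 ± 1.5 against 2.69 ± 0.16 TPM, MXD1-201 at 2.22 ± 0.51 against 2.003 ± 0.66 TPM and MXD1-206 at 1.26 ± 0.20 against 1.22 ± 0.86 TPM (shLuc against shHDAC1, SD, n = 3), all with overlap. MXD1-204 shares 27.6% of its bases with SNRNP27 on the same strand. MXI1 (chromosome 10, 110207605 to 110287365, plus strand), a repressor that was named for its interaction with MAX, was at 17.7, 18.5 and 15.97 TPM against 14.8, 15.3 and 16.5 TPM. Its groups overlapped in 1 library each, with a change of -0.15 (SE 0.10, adjusted p = 0.30). MXI1-203 was at 6.88 ± 2.5 against 5.17 ± 0.89 TPM, MXI1-201 at 4.57 ± 1.1 against 5.37 ± 0.64 TPM, MXI1-202 at 2.82 ± 0.40 against 2.07 ± 0.32 TPM and MXI1-209 at 1.58 ± 1.5 against 0.88 ± 1.4 TPM (shLuc against shHDAC1, SD, n = 3). Of these the groups of MXI1-202 did not overlap, and none passed the limma test.

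MNT and MGA, both MAX partners, did not pass the test. MNT (chromosome 17, 2384060 to 2401118, minus strand), a broadly made repressor that binds SIN3, was at 8.38, 11.9 and 10.2 TPM with shLuc and 13.3, 9.65 and 10.3 TPM with shHDAC1. The groups overlapped, and the change of 0.11 (SE 0.16, adjusted p = 0.63) turned to -0.02 with quantile normalization. The coding MNT-201 was at 5.40 ± 0.48 against 5.89 ± 0.54 TPM, and the retained-intron models MNT-205 and MNT-209 at 3.11 ± 1.7 against 3.35 ± 2.0 TPM and 1.003 ± 0.14 against 1.16 ± 0.26 TPM (shLuc against shHDAC1, SD, n = 3), all with overlap. MGA (chromosome 15, 41621224 to 41773081, plus strand) was at 6.41, 8.65 and 7.98 TPM against 11.1, 8.56 and 9.97 TPM. The lowest shHDAC1 library was just below the highest shLuc library and the other two were above it, with a change of 0.33 (SE 0.14, adjusted p = 0.12). MGA TPM was split over 4 named transcripts, all with overlapping groups. MGA-202 was at 2.77 ± 0.88 against 3.20 ± 0.02 TPM, MGA-211 at 1.49 ± 0.33 against 2.17 ± 1.3 TPM, MGA-205 at 0.79 ± 0.25 against 1.48 ± 0.63 TPM and MGA-201 at 0.99 ± 1.1 against 1.49 ± 1.5 TPM (shLuc against shHDAC1, SD, n = 3).

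**Figure D3:**
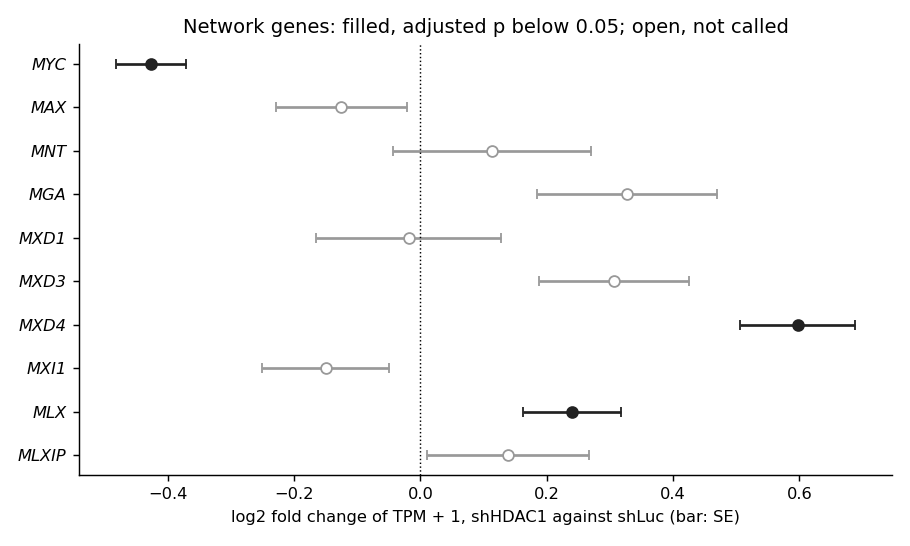
Log2 fold change of TPM + 1 for the gene sums of the 10 network genes, shHDAC1 against shLuc, with bars for the standard error (3 libraries per group) and filled points for an adjusted p below 0.05. MYC stands alone on the left among called genes, and MXD4 and MLX are called on the right.

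MLX, the partner of the glucose branch (chromosome 17, 42567068 to 42573239, plus strand), was at 46.9, 45.0 and 50.0 TPM with shLuc and 59.3, 53.1 and 55.7 TPM with shHDAC1. The groups did not overlap, and MLX rose by 0.24 on the log2 scale (SE 0.08, n = 3 per group, limma adjusted p = 0.048). This is the weakest of the 3 calls. It was kept in 5 of 15 alternatives and lost after median centring (0.14, adjusted p = 0.17), and without any 1 of 5 of the 6 libraries (adjusted p up to 0.15). MLX-201, with a mean share of 52.8% of MLX TPM in shLuc and 52.1% in shHDAC1 libraries, was at 24.9, 25.6 and 24.2 TPM against 28.4, 30.6 and 28.4 TPM. It shares 29.8% of its bases with PSMC3IP on the opposite strand, at 34.3 TPM with shLuc and 30.3 TPM with shHDAC1, and MLX without the transcripts that overlap PSMC3IP changed by 0.19 (adjusted p = 0.36). MLX-209 was at 17.8 ± 2.7 against 19.7 ± 4.0 TPM, and the retained-intron models MLX-206 and MLX-204 at 2.47 ± 0.47 against 4.04 ± 1.5 TPM and 0.87 ± 0.25 against 1.49 ± 0.32 TPM (shLuc against shHDAC1, SD, n = 3), without overlap for MLX-204 and with no call by limma.

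MLXIP, the glucose-responsive partner of MLX (chromosome 12, 122078722 to 122147347, plus strand), was at 7.25, 7.54 and 7.99 TPM with shLuc and 9.10, 7.13 and 9.28 TPM with shHDAC1. Replicate 2 of shHDAC1 was below all shLuc libraries and the other two were above them, and the change of 0.14 (SE 0.13, adjusted p = 0.46) did not pass the test and was -0.01 with quantile normalization. Its main transcript MLXIP-201 was at 5.43, 6.03 and 6.37 TPM against 7.47, 6.57 and 7.68 TPM, with groups that did not overlap and a change of 0.25 that did not pass the test (SE 0.13, adjusted p = 0.40). MLXIPL (ChREBP), the partner used in liver and fat, was at 0.13 TPM or less in every library and was not tested.

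The TPM of MYC and of its antagonists can also be set against each other in each library, within the limit on gene sums given above. The sum of MXD1, MXD3, MXD4, MXI1, MNT and MGA was 91.5, 90.5 and 95.7 TPM with shLuc and 112, 110.4 and 119.6 TPM with shHDAC1. MYC TPM were 7.56, 7.78 and 7.73 times this sum with shLuc and 4.93, 4.61 and 4.39 times with shHDAC1. Neither quantity overlapped between groups, and the mean ratio with shHDAC1 was 60.4% of that with shLuc. This ratio joins 1 gene called lower and 1 repressor called higher with 5 genes that did not pass the test. It was formed with their values known, and it was not tested. The antagonist sum includes MXD4-204, annotated as a substrate of nonsense-mediated decay, at a mean of 18.2 TPM with shLuc and 26.7 TPM with shHDAC1. MXD3-209 is in it too, at means of 0.01 and 5.32 TPM. Part of the rise therefore lies in transcripts not annotated to give the full protein. The sum of all 10 genes was 894, 894 and 953 TPM with shLuc and 788, 731 and 756 TPM with shHDAC1, since MYC makes up most of it.

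The promoters of the members were searched for the E-box CACGTG, a palindrome that reads the same on both strands, in windows from 250 bases before to 50 bases after each RefSeq gene start. A window was found for 9 of the 10 members, and MYC had none in the table. MXD4, MNT and MLX each held 1 copy, and the windows of MXD1, MXD3, MXI1, MAX, MGA and MLXIP held none, which says only that these letters are not in those windows. The stretches around the copies are shown because MXD4 and MLX are the 2 members called higher, with MNT as the member that carries the motif and did not pass the test. The motif is in capitals, 5′ to 3′ on the gene's strand, in GRCh38.p14.
MXD4: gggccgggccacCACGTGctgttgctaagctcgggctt
MNT: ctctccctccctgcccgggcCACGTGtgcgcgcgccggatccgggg
MLX: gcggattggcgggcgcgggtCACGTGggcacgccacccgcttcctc
These lie at chr4:2262322-2262359 on the minus strand, chr17:2401228-2401273 on the minus strand and chr17:42567030-42567075 on the plus strand. The motif starts 238, 193 and 50 bases before the RefSeq gene start, which differs from the start of the GENCODE span given above for each gene. Of 35116 RefSeq promoter windows, 7.26% held the motif. Counted by gene, as the members are, 13.1% of tested genes with a window held it. Among 8851 tested genes with a window, the 1158 genes with the motif were called higher in 16.7% and lower in 11.7%, with a median change of 0.06. The 7693 genes without it were called higher in 16.9% and lower in 10.5%, with a median change of 0.08, so shares and medians were nearly alike with and without the motif.

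The genes around the network were described from lists, each by its count beside the background of 16.9% called higher and 10.3% lower. Of 57 genes that MYC is known to activate, 7 were higher and 12 were lower (12.3% and 21.1%), with a median change of -0.04. The called genes went both ways. GNL3, a nucleolar GTPase, fell by 0.46 (adjusted p = 5.0e-04), NOLC1, a nucleolar chaperone, by 0.41 (adjusted p = 0.0018) and EXOSC5, an RNA exosome subunit, by 0.49 (adjusted p = 0.0028). HSPE1, the mitochondrial co-chaperonin, rose from 473 ± 26.6 to 1008 ± 97.0 TPM (SD, n = 3), by 1.09 (adjusted p = 1.9e-05). RRP9, a factor of ribosomal RNA processing, and SLC19A1, the reduced folate carrier, each rose by 0.43 (adjusted p = 0.0039 and 0.0064). The other 38 of the 57 genes did not pass the test.

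Of 12 tested genes that MYC is known to repress, 6 were lower and 1 was higher, with a median change of -0.24. NDRG1, a gene of stress and differentiation, fell from 41.0 ± 5.8 to 17.7 ± 1.2 TPM (SD, n = 3), by 1.16 (adjusted p = 1.2e-04). BTG2, an antiproliferative gene, fell by 0.79 (adjusted p = 3.0e-04), and GADD45B, a stress-response gene, by 0.62 (adjusted p = 0.0013). CDKN1C, the cell cycle inhibitor p57, rose by 1.14 from a low level (adjusted p = 0.021), a call lost without shHDAC1 replicate 2 (0.98, adjusted p = 0.054).

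The next lists hold the complexes that members recruit. Of 23 SIN3 and NCoR components tested, 2 were higher and 4 were lower, with a median change of -0.00082. HDAC1 itself is 1 of the 4. TBL1XR1, an NCoR subunit, fell by 0.38 (adjusted p = 0.0054) and RBBP4, a histone chaperone, by 0.27 (adjusted p = 0.0054). SAP130 (0.45, adjusted p = 0.022) and SAP18 (0.25, adjusted p = 0.015), both SIN3-associated, rose, and each lost its call without some single libraries (adjusted p up to 0.082 and 0.056).

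In PRC1.6, the complex of MGA, 2 of 9 tested genes were higher and 1 was lower, with a median of 0.04. WDR5, a scaffold that also binds MYC, rose by 0.29 (adjusted p = 0.010), a call lost in 1 of 14 alternatives (limma adjusted p = 0.055). E2F6, a DNA-binding subunit, was called higher by 0.35 (adjusted p = 0.036) and CBX3, a heterochromatin protein that is also in the MYC-activated list, lower, with a change of -0.30 (adjusted p = 0.020), and both lost their calls when single libraries were left out (adjusted p up to 0.12 and 0.057). Of 12 germline genes silenced by PRC1.6, 10 were not tested, and of the other two 1 was lower. SYCP3, a meiotic gene, was at 1.67 ± 0.55 TPM in shLuc and 0.45 ± 0.18 TPM in shHDAC1 libraries (SD, n = 3) with a change of -0.86 (adjusted p = 0.013), but the filter was met in shLuc alone, where it is high, so the call is tied to the filter (adjusted p = 0.040 with no filter). STAG3, a meiotic cohesin gene, was at 1.88 ± 0.26 TPM in shLuc and 2.97 ± 1.0 TPM in shHDAC1 libraries (SD, n = 3) and did not pass the test (0.44, adjusted p = 0.13).

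Of 17 MYC coactivators, 5 were higher and 0 were lower by limma, with a median of 0.21. KAT2A, the GCN5 acetyltransferase, rose by 0.54 (adjusted p = 0.0052) and CREBBP, the CBP acetyltransferase, by 0.56 (adjusted p = 0.013), and both calls held with each library left out. Over all 14 alternatives KAT2A kept its call, and CREBBP lost it in 1 (limma adjusted p = 0.056). SMARCB1 (0.27), CDC73 (0.36) and RUVBL1 (0.18), subunits of the SWI/SNF, PAF1 and TIP60 complexes, were called at adjusted p of 0.027 to 0.048. Each of these lost its call in at least 5 of 6 fits with 1 library left out and after median centring.

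Of 18 genes that set the stability of MYC protein, 2 were higher and 0 lower by limma, with a median of 0.06. STUB1, the ubiquitin ligase CHIP, rose from 51.6 ± 7.3 to 117 ± 0.90 TPM (SD, n = 3), by 1.17 (adjusted p = 4.3e-05). USP36, a nucleolar deubiquitinase that acts on MYC, rose by 0.43 (adjusted p = 0.013), or 0.38 without shHDAC1 replicate 1 (adjusted p = 0.050). The call of USP36 was lost in 2 of 14 alternatives (limma adjusted p up to 0.095). MYC protein was not measured.

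Of 18 tested regulators of MYC transcription or RNA, 3 were higher and 6 were lower, 50.0% in all, with a median of -0.03. IRF4, which activates MYC in myeloma, was at 54.7 ± 4.8 TPM in shLuc and 24.9 ± 1.9 TPM in shHDAC1 libraries (SD, n = 3) and is also among the plasma cell markers above. IGF2BP3, an RNA-binding protein that stabilises MYC RNA, fell from 48.3 ± 5.3 to 19.8 ± 1.2 TPM (SD, n = 3), by 1.24 (adjusted p = 4.3e-05). YBX1, a cold-shock RNA-binding protein, fell by 0.34 (adjusted p = 0.0012). ZFP36L1, which promotes decay of AU-rich RNAs, rose by 1.04 (adjusted p = 5.8e-04), IGF2BP2, the paralogue of IGF2BP3, rose by 0.64 (adjusted p = 0.0027), and KHSRP, another decay factor, rose by 0.29 (adjusted p = 0.031). The call of KHSRP was lost without any 1 of 4 libraries (adjusted p up to 0.095).

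The called targets of MLX and its partners went both ways, with 1 of 8 tested genes higher and 2 lower, and the median of the 8 was -0.01. The other 5 did not pass the test. TXNIP, 1 of these, was at 124 ± 7.4 TPM in shLuc and 127 ± 7.3 TPM in shHDAC1 libraries (SD, n = 3), a change of 0.03 (limma adjusted p = 0.77). PFKFB3, a regulator of glycolysis, rose by 0.84 (adjusted p = 0.0042). The lipid synthesis genes SCD and FASN fell by 0.42 (adjusted p = 0.0019) and 0.41 (adjusted p = 0.016), and FASN lost its call in the fit that omitted the third shLuc library (-0.34, adjusted p = 0.0502). Of 13 other factors that bind E-boxes, 5 were higher and 0 lower by limma, with a median of 0.27, in a list whose member TFEC, not called, passed the filter only through shHDAC1. TFEB (0.92), MITF (0.62) and TFE3 (0.42), related factors of lysosome and pigment genes, TFAP4 (0.47), itself a MYC target, and USF1 (0.27) were called at adjusted p of 0.018 to 0.041. Each of these 5 calls was lost in at least 2 of 6 fits with 1 library left out.

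By correlation of log2(TPM + 1) over the 6 libraries, the genes most like MYC were LHFPL2 (Pearson r 0.999), FAM171A1 (0.999) and AIF1L (0.998). This is a description over 6 libraries that fall into 2 groups, and all 3 genes were, like MYC, called lower with shHDAC1.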

How the data were processed

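Per the labels' protocols, RNA of RPMI 8226 was treated with DNase, and the NEBNext Ultra RNA kit was used for the libraries. Each library has 1 table of TPM per Ensembl transcript that the authors deposited, per the file headers. STAR, DESeq and hg19 appear in the submitters' processing notes with no version or role, and what tool and annotation gave the TPM is not given in the sources used here. As TPM are shares, a rise of some transcripts lowers others.

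Identifiers were matched to GENCODE 29 (91.9% of 173259 transcripts), and TPM were summed by gene. Coordinates are on GRCh38, with none converted. The sample labels gave 3 libraries per group, from transductions in triplicate, whose spread is what the p-values measure. Features reaching 1 TPM in 3 libraries were compared by limma 3.58.1 (R 4.3.3) with a variance trend on log2(TPM + 1), a scale that understates changes of low values. Benjamini-Hochberg adjustment covered every tested feature. Gene sums, transcripts and isoform shares (a transcript's log2 level minus that of the gene's other transcripts) were fitted separately, and the test was checked on simulated data.

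The text names all 10 members, their transcripts with a mean of 1 TPM or more and, from each list, the 3 genes of smallest p called in either direction, or all where 5 or fewer were called. Members and lists were chosen with earlier results of these data known. Deviations of same-numbered libraries correlated at -0.10, 0.18 and 0.03, and those of other pairs at -0.16 to 0.15. These few values cannot settle whether the numbers pair libraries, so the block was run as an alternative. The settings varied were scaling (median centring, quantile), filter (none, mean of 5 TPM), pseudocount (0.1, 5), a replicate block, protein-coding transcripts alone and each library left out. Sums without transcripts that overlap other genes were added after seeing the data.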

Additional observations from a re-analysis of the deposited data

How the results depend on the processing

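MYC and MXD4 kept direction and call under all 14 alternatives run, and no called member turned direction. The calls of MYC-206 and MXD4-201 were lost with any 1 of the 6 libraries left out. MXD3-209, tied to the filter, entered only the 3 such fits that left out a shLuc library, where it was at 0.02 TPM or less. Its call was kept there, which says nothing of its stability. Depth, which limits low values, is unknown. Of 44 other genes named from lists, 26 kept their call throughout, 18 lost it under at least 1 alternative and none turned direction. Over all lists and alternatives, 69 counts of called genes moved by over 1.5 times and 295 did not.

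The change of MLX was 0.14 with median centring, 0.19 with quantile normalization, 0.24 without a filter (adjusted p = 0.069), 0.19 over protein-coding transcripts and 0.19 without overlapping transcripts, none of them called by limma, and 0.20 to 0.28 with a library left out. With quantile normalization MNT was at -0.017 and MLXIP at -0.013. MXD3-203 was at -0.029 with median centring and -0.0028 with quantile normalization. With a library left out, MNT ranged from -0.01 to 0.22, MXD1 from -0.12 to 0.12, MXD3 from 0.22 to 0.41, MXD1-204 from -0.075 to 0.38 and MXD3-203 from -0.089 to 0.17. The cause of these turns was not tested.

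Median centring left 1336 genes called higher, and leaving out a library 1295 to 1981. Transcripts called higher numbered 321 without a filter and 131 to 278 with a library left out, and those called lower 269 and 61 to 174, in place of 726 and 598. Isoform shares called numbered 101 without a filter, 8 at a mean of at least 5 TPM, 92 and 120 with pseudocounts of 0.1 and 5, and 0 to 0 with a library left out, in place of 17. MYC-activated genes called higher numbered 3 with median centring, 3 without a filter and 3 to 8 with a library left out, and those called lower 7 to 11. MYC-repressed genes called higher numbered 0 without a filter, 0 at a mean of at least 5 TPM and 0 to 1 with a library left out. The cause was not tested.

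With the replicate number as a block, 114 transcripts were called higher, 79 lower and 0 by share, and the calls of MYC-206 (adjusted p = 0.077), MXD4-201 (0.11) and MXD3-209 (0.0515) were lost. The block changed no call of a member gene.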
